A study of Homo sapiens with 3 samples.

Results

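The GAGE and USP17L arrays are a pair of tandem repeats on chromosomes X and 4 where mutant p53 ChIP-seq peaks were dense in 1 of 3 libraries from VCaP cells. The members are the listed peaks whose summit lay in chrX:49000001-50000000 (GAGE) or chr4:9000001-10000000 (USP17L) of the human build hg19, 84 of the 35740 peaks in all. The 2 windows were chosen by their peak counts in these same libraries, so the counts are a description and carry no test. VCaP is a human prostate cancer cell line with the p53 change R248W, which alters the DNA-binding domain. The study compared where mutant p53 was found with and without a hairpin against ERG, an ETS family transcription factor.

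The groups were cells with an ERG shRNA whose label has no number (ERG shRNA below), cells with an ERG shRNA numbered 2 (ERG shRNA 2), and cells with a luciferase shRNA as the control. Each group was 1 library, made from several pooled immunoprecipitations, so there is no replicate check and every difference compares libraries. The antibody is given as DO-1 for ERG shRNA and the control, and the label of ERG shRNA 2 names none. All groups share the cell line and its mutant p53. The libraries held 4853617 tags in ERG shRNA, 52175068 in ERG shRNA 2 and 9258451 in the control, and their lists held 17321, 433 and 17986 peaks. The file headers tag the alignments of ERG shRNA 2 with another month and year than those of ERG shRNA and the control, so that difference and the hairpin cannot be told apart. A knockdown check of ERG was not analysed here.

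GAGE genes encode small cancer/testis antigens: they are normally active in germ cells, silent in most other adult tissues, and turned on in many tumours. USP17L genes encode deubiquitinating enzymes, which remove ubiquitin from other proteins, and each copy sits in a repeat unit of a long tandem array. In both families the copies are close to identical in sequence, so a short read may fit several of them. The sources used here do not say how such reads were placed, and the assignment of a peak to 1 copy is therefore uncertain.

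The RefSeq gene table, which covers the later build GRCh38.p14, lists 12 GAGE genes on chromosome X. In order of start among these genes, GAGE10 is at place 1, GAGE13 at place 3 and GAGE1 at place 12. They are not evenly spaced: the promoter of GAGE12B starts at 49340914 and that of the next, GAGE12C, at 49531927. RefSeq lists 23 USP17L genes on chromosome 4, of which 19 are protein coding. By the same order, USP17L10 is at place 1, USP17L15 at place 6 and USP17L20 at place 11. The peaks are in hg19, so no peak was placed on GAGE1, GAGE10, GAGE13, USP17L10, USP17L15, USP17L20 or any other copy. The names of the windows were taken as given and not checked by gene position.

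Promoters of 3 GAGE genes are shown because they let the likeness of the copies be read directly. Each runs from 250 bases before to 50 after the RefSeq start, 5′ to 3′ on the plus strand of GRCh38.p14, whose positions do not match those of the hg19 peaks. They lie at chrX:49303396-49303695, chrX:49331332-49331631 and chrX:49598770-49599069. Capitals mark bases that differ from GAGE13 within the aligned stretch of a pairwise alignment. Bases missing against GAGE13 carry no mark.
GAGE10: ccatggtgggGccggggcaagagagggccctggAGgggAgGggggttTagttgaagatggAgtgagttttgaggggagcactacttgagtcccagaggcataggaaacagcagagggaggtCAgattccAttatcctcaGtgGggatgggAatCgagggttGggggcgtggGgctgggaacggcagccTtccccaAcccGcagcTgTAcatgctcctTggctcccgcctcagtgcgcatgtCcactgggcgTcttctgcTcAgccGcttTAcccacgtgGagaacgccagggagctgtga
GAGE13: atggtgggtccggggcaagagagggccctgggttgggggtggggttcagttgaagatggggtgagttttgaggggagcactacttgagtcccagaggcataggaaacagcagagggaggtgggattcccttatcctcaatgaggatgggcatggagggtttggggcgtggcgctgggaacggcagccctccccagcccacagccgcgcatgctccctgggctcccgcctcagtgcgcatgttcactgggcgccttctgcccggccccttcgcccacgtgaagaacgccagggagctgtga
GAGE1: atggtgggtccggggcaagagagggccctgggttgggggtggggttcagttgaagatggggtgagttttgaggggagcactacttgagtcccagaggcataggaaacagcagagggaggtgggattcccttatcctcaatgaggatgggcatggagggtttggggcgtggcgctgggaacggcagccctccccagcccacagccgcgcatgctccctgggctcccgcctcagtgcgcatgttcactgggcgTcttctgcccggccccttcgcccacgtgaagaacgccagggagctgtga
GAGE1 differed from GAGE13 in 1 of 300 aligned positions and GAGE10 in 33, an identity of 99.7% and 89.0%. The 33 include positions where GAGE10 lacks a base, so its capitals are fewer. Of the 11 other GAGE promoters in the table, 10 were over 95% identical to GAGE13. The core letters of ETS binding sites, GGAA, were found on either strand in 12 of 12 GAGE promoters and in 95.5% of all 35116 promoters of that length. The longer form CCGGAA, which contains the core, was in 0 of 12 against 17.2% of all, and the p53 half-site consensus in 0 of 12 against 6.63%. Most of the 12 are near copies of GAGE13, so they do not count as 12 separate sequences, and nothing is read from the shares. These matches describe the letters of the GRCh38 windows alone.

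The GAGE window held 43 ERG shRNA peaks, 0 ERG shRNA 2 peaks and 4 control peaks. The USP17L window held 32 ERG shRNA peaks, 0 ERG shRNA 2 peaks and 5 control peaks. Exact Poisson 95% intervals, which cover counting error only, were 31.1 to 57.9 and 1.09 to 10.2 for ERG shRNA and control in the GAGE window, and 21.9 to 45.2 and 1.62 to 11.7 in the USP17L window. Of 703 windows of 1 Mb with at least 10 ERG shRNA or control peaks, 14 (1.99%) held at least 5 times as many ERG shRNA peaks as control peaks, and both arrays were among them. The GAGE window had the largest excess of ERG shRNA over control peaks of these 703 windows, 39, and the USP17L window was at rank 3 with 27. Since the windows were picked for this, nothing is read from the ranks.

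**Figure D1:**
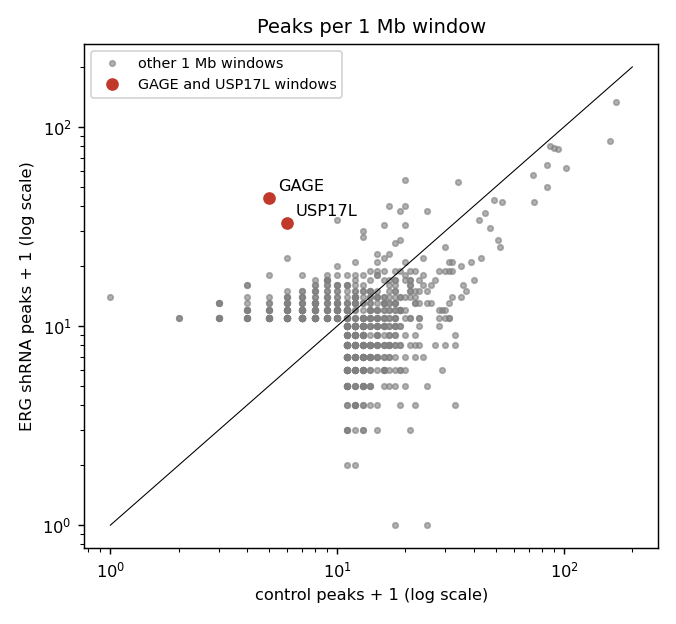
Peaks per 1 Mb window, for windows with at least 10 peaks in either list: ERG shRNA peaks on the vertical axis, control peaks on the horizontal axis, 1 added to each, both on log scales. The line marks equal counts. The GAGE window (43 ERG shRNA and 4 control peaks) and the USP17L window (32 and 5) lie well above it.

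The neighbouring stretches held fewer ERG shRNA peaks. The 2 windows of 1 Mb on either side of GAGE held 2 to 7 ERG shRNA peaks and 2 to 7 control peaks each, and those around USP17L held 0 to 13 and 1 to 11. The ERG shRNA summits nearest the GAGE bounds were 49183997 inside (pileup 4, fold 4.14) and 48870170 before it (pileup 7, fold 6.63), then 49830573 inside (10, 9.12) and 50374936 after it (3, 3.31). For USP17L they were 9009222 inside (4, 3.74) and 7067703 before it (6, 5.23), then 9631680 inside (5, 4.94) and 10516271 after it (5, 4.97). Pileup is the number of extended tags over the summit, and fold is the authors' ratio of pileup to local background, with 1 added to each. Scaled pileup below is the pileup per 1000000 tags of its library.

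Within each window the ERG shRNA peaks gathered in 2 dense runs, meaning stretches of at least 5 peaks with neighbouring summits at most 50 kb apart. The GAGE runs held 15 peaks over 55.0 kb (summits from 49183997 to 49238985) and 25 peaks over 71.3 kb (49295578 to 49366863), with 56.6 kb free of peaks between them. The USP17L runs held 11 peaks over 56.4 kb (9216508 to 9272943) and 17 over 38.0 kb (9330448 to 9368421), with 57.5 kb free of peaks between them. Whether hg19 holds assembled sequence in these empty stretches was not tested. The runs thus took in 40 of the 43 GAGE peaks and 28 of the 32 USP17L peaks of ERG shRNA.

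The control peaks did not follow the same layout in the 2 arrays. In the GAGE runs the control listed 0 peaks, and all 4 of its peaks lay further along the chromosome. In the USP17L runs the control listed 4 peaks, 3 in the first run and 1 in the second. ERG shRNA 2 listed none in either array, nor in the 2 windows of 1 Mb on either side of each.

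**Figure D2:**
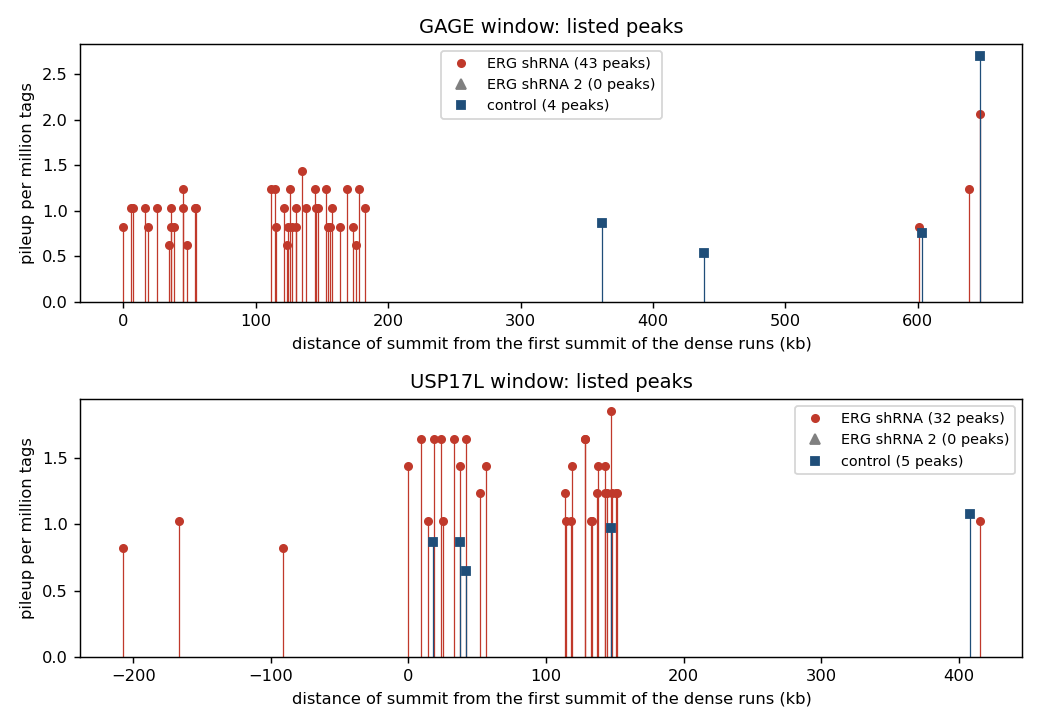
Listed peaks in each window by library. The horizontal axis gives the distance of each summit from the first summit of the dense runs in kb, and the vertical axis its scaled pileup (per 1000000 tags). Of the ERG shRNA peaks (43 in GAGE and 32 in USP17L), 40 and 28 lie in the 2 runs of their window. Of the control peaks (4 and 5), 0 lie in the GAGE runs and 4 in the USP17L runs.

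Summits of ERG shRNA in the GAGE runs recurred at about 9.54 kb. Of all distances from 2 to 15 kb between 2 summits of a run, 9540 bp (within 100 bp) was the most frequent, with 16 pairs against a median of 1 pair at the distances tried. This pair measure was added after the data had been seen. Each run showed it by itself, with 5 pairs at 9530 bp in the first and 11 pairs at 9540 bp in the second. A second maximum stood at 19.06 kb, about 2 units, with 14 pairs. Of the window's 43 summits, 25 (58.1%) had another ERG shRNA summit 9.54 kb away within 300 bp, against 2.30% of all 17321 ERG shRNA peaks. The runs are denser in peaks than the list as a whole, which by itself raises this share, so 2.30% is no baseline. A summit and its partner count each other, so the 25 are not separate cases and no interval is given. The unit was read from these same summits, so the share is a description.

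The longest chain of GAGE summits, each 1 unit from the next, had 7 members in the second run. Its summits were 49309635, 49319190, 49328730, 49338307, 49347795, 49357302 and 49366863, and the steps between them ran from 9488 to 9577 bp. The pileups along this chain were 6, 7, 6, 4, 4, 4 and 5 tags in ERG shRNA, and the control listed no peak at any of them. The same place in the repeat was thus listed in 7 successive units, with pileups of 4 to 7 tags.

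The GAGE peaks took up several places in the unit rather than one. In the first run 9 of 15 summits belonged to 4 chains, and in the second 16 of 25 belonged to 5. There were 2.60 and 3.35 peaks per unit of length in the 2 runs. A measure that looks for a single place per unit, the mean resultant length (0 for summits spread evenly over the unit, 1 for summits all at the same place), was highest at 1065 bp for the whole GAGE window, with 0.43, and did not pick out 9.54 kb, where it was 0.38 over the 2 runs. Searched by itself over 2 to 8 kb only, the first run gave 3220 bp and the second 2380 bp by this measure. That range holds neither 9.54 kb nor 1065 bp, so these values do not bear on either. At 9.54 kb the mean resultant length was 0.66 in the first run and 0.21 in the second.

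Summits of ERG shRNA in the USP17L runs lay at 1 main place in a shorter unit. The mean resultant length over the whole window was highest at 4775 bp, with 0.74. With a phase of its own for each run it was highest at 4735 bp, with 0.79. Searched by itself over 2 to 8 kb only, the second run gave 4755 bp and the first 2365 bp, close to 0.5 of that unit. At that unit, 24 of the 28 summits in the runs (85.7%) lay within 500 bp of the mean place of their run, a band that covers 21.1% of the unit. The unit and the mean places were read from these same summits, so the share is a description and the width of the band is no baseline for it. Of the window's 32 summits, 22 (68.8%) had another ERG shRNA summit 1 unit away within 300 bp, against 2.96% of all ERG shRNA peaks. As in GAGE, partners count each other and the runs are denser than the list, so 2.96% is no baseline. The 2 runs spanned 22 units, of which 18 held a summit. A chain of 4 in the first run had its summits at 9225693, 9230437, 9234987 and 9239949, with pileups of 8, 5, 8 and 8 tags. The longest chain, in the second run, had 8 summits over 6 units.

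Pair distances were less sharply peaked in USP17L than in GAGE. The pair count was highest near 14.28 kb, about 3 units, with 9 pairs. The shortest distance with at least 75% of that count was 4450 bp, with 8 pairs, and it was taken as the unit by the pair measure so that a multiple would not be. In the second run 6 pairs of neighbouring summits were less than 500 bp apart, and in the first run none were, so a unit of the second run often held a close pair of peaks. There were 0.92 peaks per unit in the first run and 2.12 in the second. Of the 4 control summits in the runs, 3 lay within 500 bp of the mean place of the ERG shRNA summits. These 3 belong to the control peaks that overlapped an ERG shRNA peak, so their place is not a separate observation.

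**Figure D3:**
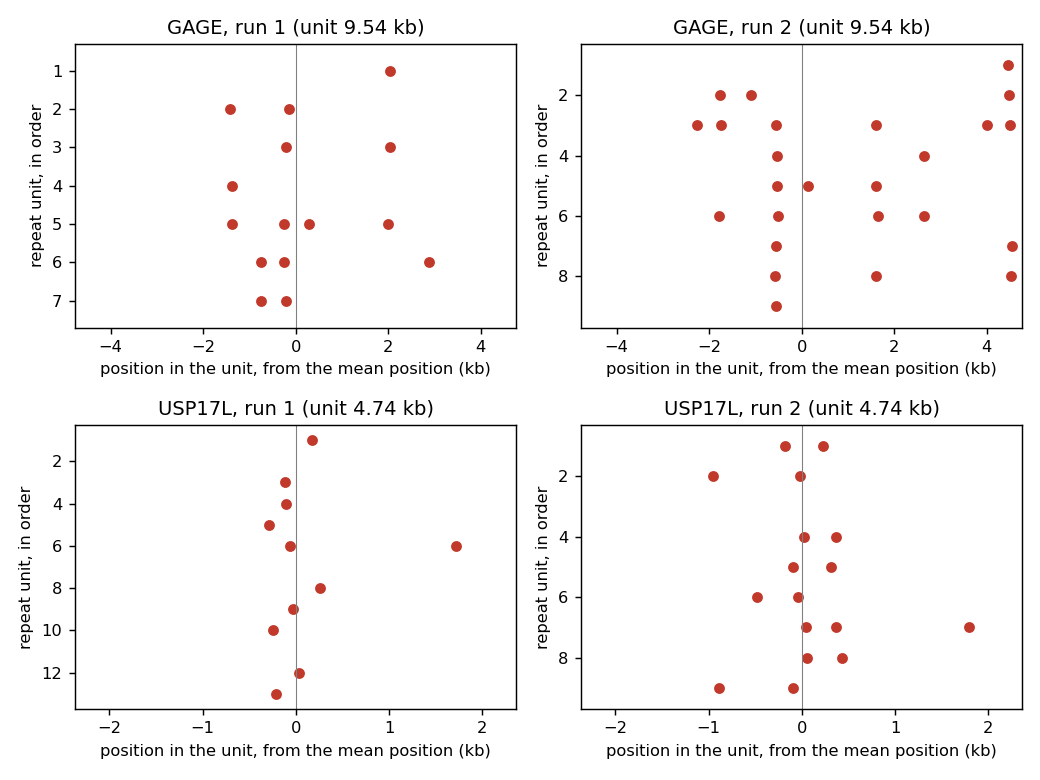
ERG shRNA summits of each dense run, stacked by repeat unit (9.54 kb for GAGE, 4735 bp for USP17L). The horizontal axis gives the position in the unit from the run's mean position in kb, and the vertical axis the unit in order along the chromosome. USP17L summits line up near 0 (24 of 28 within 500 bp), and GAGE summits form several columns, the longest of 7 units.

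These spacings can be set beside other dense windows. In ERG shRNA 26 windows of 1 Mb held at least 30 peaks, the 2 arrays included. The highest mean resultant length of the other 24 ran from 0.23 to 0.55 with a median of 0.38, and 0 of them exceeded the 0.74 of USP17L, while 4 exceeded the 0.43 of GAGE. The number of pairs by the pair measure ran from 3 to 18 in the other windows, with a median of 5.5. Of these 24 windows 1, with 132 peaks, exceeded the 16 pairs of GAGE, and 4 exceeded the 8 pairs of USP17L. A partner at 9.54 kb was held by at most 50% of the peaks in these 24 windows, with a median of 14.8%. A partner at the USP17L unit was held by at most 43.3%, with a median of 15.6%. Both maxima were below the 58.1% and 68.8% in the arrays, from which these units were read. These windows are dense per 1 Mb and were not matched to the density within the runs. No test was made of these differences.

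**Figure D4:**
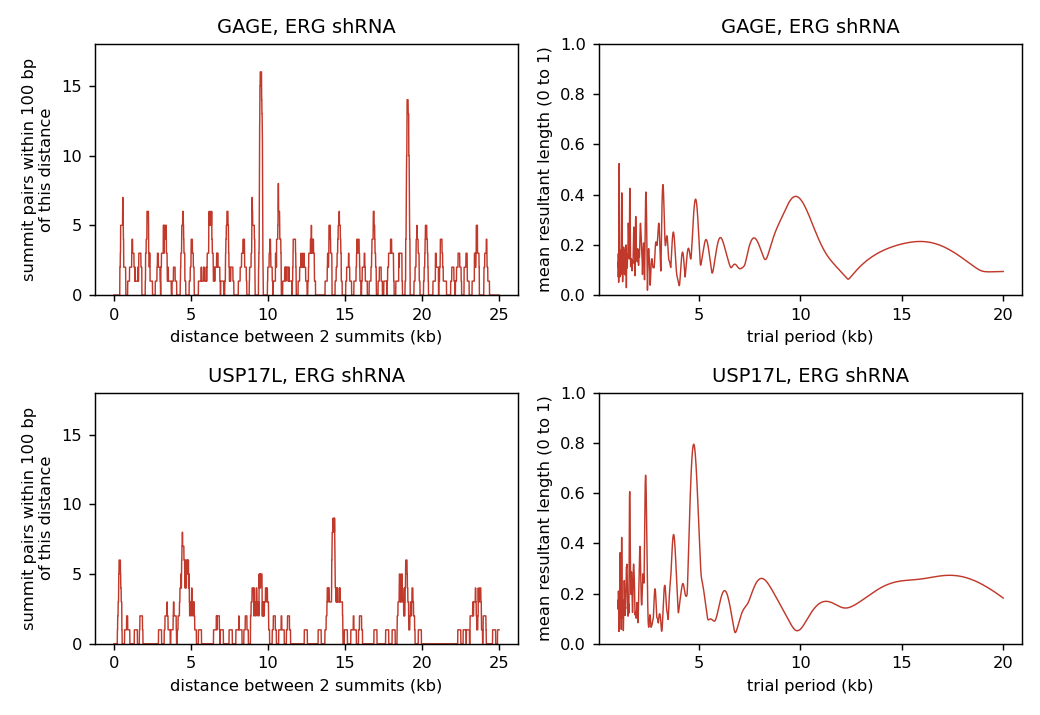
Spacing of ERG shRNA summits in the dense runs. Left, the number of summit pairs within 100 bp of each distance; right, the mean resultant length for each trial period with a phase for each run, both horizontal axes in kb. GAGE has its tallest pair count at 9.54 kb and a resultant length highest at 1060 bp, and USP17L has its highest resultant length at 4735 bp.

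The GAGE peaks of ERG shRNA were low. Their pileup was 3 to 10 tags with a median of 5, a scaled pileup of 0.62 to 2.06 with a median of 1.03. The median of the whole ERG shRNA list was also 1.03. By pileup, 4 peaks had 3 tags, 13 had 4, 15 had 5, 9 had 6, and 1 each had 7 and 10. The median width was 117 bp (115 to 330), and 21 of the 43 peaks (48.8%) had the smallest width MACS could list there, 115 bp. The list's median width was 115 bp, and 54.9% of its peaks had that smallest width.

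The 5 GAGE peaks of highest fold in ERG shRNA began with chrX:49830493-49830642, with a fold of 9.12, which lay outside the runs. The next, chrX:49319090-49319206, had 6.63 and was the second member of the chain of 7. The places after it were tied: 6 peaks had 6 tags and a fold of 5.80. They were chrX:49229341-49229484, chrX:49298802-49298949, chrX:49309534-49309701, chrX:49328649-49328783, chrX:49337004-49337141 and chrX:49352806-49352994. The peaks starting at 49309534 and 49328649 hold summits of that chain on either side of it.

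The 4 control peaks of the GAGE window had pileups of 5 to 25 tags, a scaled pileup of 0.54 to 2.70. The 1 site of the window in both lists was that of the strongest peak of each: ERG shRNA had a scaled pileup of 2.06 at chrX:49830493-49830642, against 2.70 in the control at chrX:49830441-49830641. The 2 summits lay 68 bp apart, and the control peak had 25 tags and a fold of 15.8. Tags were extended to 115 bp in ERG shRNA and to 148 bp in the control. With tag number and extension both allowed for, the 10 tags of ERG shRNA equal 24.5 in the control, where 25 were counted, so the levels at this site, outside the runs, were close. The other control peaks were chrX:49545466-49545675 with 8 tags and a fold of 5.40, chrX:49622536-49622683 with 5 tags and 3.65, and chrX:49786832-49786979 with 7 tags and 5.31.

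The USP17L peaks of ERG shRNA also had few tags, though their medians were above those of the list. Their pileup was 4 to 9 tags with a median of 6, a scaled pileup of 0.82 to 1.85 with a median of 1.24. The whole ERG shRNA list had medians of 5 tags and 1.03. The median width was 131 bp (115 to 306), against 115 bp in the list. The smallest width of 115 bp was held by 10 of the 32 (31.3%), against 54.9% of the list. The 5 of highest fold all lay in the runs: chr4:9363650-9363883 with 6.40, chr4:9258645-9258810 with 5.64, chr4:9234957-9235217 with 5.43, chr4:9225619-9225768 with 5.39 and chr4:9239745-9240044 with 5.34. Their pileups were 8 or 9 tags, and the whole window reached at most 9.

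At 3 sites of the USP17L window, all in the runs, both libraries had a peak. ERG shRNA had a scaled pileup of 1.85 (9 tags) at chr4:9363650-9363883, against 0.97 (9 tags) in the control at chr4:9363722-9363895, with summits 61 bp apart. It had 1.65 (8 tags) at chr4:9258645-9258810, against 0.65 (6 tags) in the control at chr4:9258640-9258787, 18 bp apart. At the site around summit 9254187 it had 1.44 (7 tags), against 0.86 (8 tags) in the control at chr4:9254255-9254438, 159 bp apart. By tag number alone, the scaled pileups of ERG shRNA were 1.91, 2.54 and 1.67 times those of the control at these 3 sites. With extension allowed for as well, the 9, 8 and 7 tags of ERG shRNA equal 22.1, 19.6 and 17.2 in the control. The control had 9, 6 and 8 tags there. The lists differed in the same direction as a whole, with a median scaled pileup of 1.03 in ERG shRNA and 0.648 in the control, so nothing particular to these sites is read from the ratios. All 5 control peaks of the window had a scaled pileup of 0.65 to 1.08. The other 2 were chr4:9234180-9234327 with 8 tags, whose nearest ERG shRNA summit was 772 bp away, and chr4:9624761-9624926 with 10 tags and a fold of 7.26, outside the runs.

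Few sites were shared. Of the GAGE peaks of ERG shRNA 1 of 43 (2.33%, 0.0589 to 12.3) was overlapped by a control peak by at least 1 bp, and of the USP17L peaks 3 of 32 (9.38%, 1.98 to 25.0), against 14.0% of all ERG shRNA peaks. In the other direction 4 of the 9 control peaks of both windows (44.4%, 13.7 to 78.8) also met a peak of ERG shRNA, against 13.5% of all control peaks. The windows were chosen for having few control peaks, which bounds the shares of ERG shRNA peaks. They were also chosen for having many ERG shRNA peaks, which raises the share of control peaks. All these shares are therefore a description.

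The arrays differed in their background, which MACS takes from the input library and which was recovered from the deposited pileup and fold. In the GAGE runs 31 of 40 ERG shRNA peaks (77.5%) had the genome-wide background, the lowest MACS uses, and the highest was 1.63 times it. Over the whole list 34.0% of ERG shRNA peaks had that lowest value. In the USP17L runs 0 of 28 peaks had it, and their background was 2.58 to 4.90 times the genome-wide value with a median of 3.22. The 4 control peaks of the USP17L runs had 2.75 to 3.81 times the genome-wide value of their own list. The input background was thus raised at every USP17L peak of the runs and at 9 of the 40 GAGE peaks of the runs. Its part in the peak counts was not tested.

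**Figure D5:**
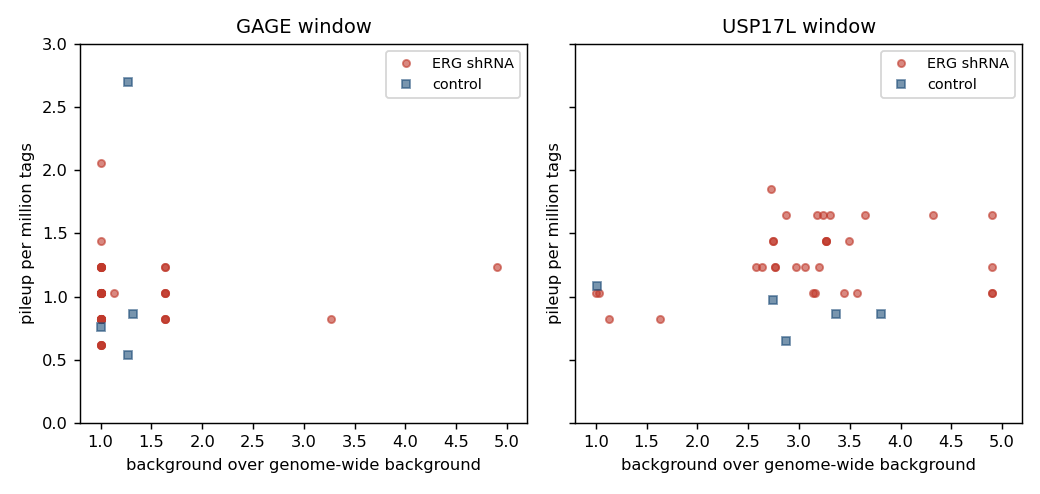
Scaled pileup (per 1000000 tags) against the background at each peak, divided by the genome-wide background of its library, for ERG shRNA and control. Of the GAGE peaks of the runs 31 of 40 stack at 1 on the horizontal axis, and USP17L peaks of the runs lie from 2.58 to 4.90.

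The limit for listing a peak differed between the libraries and was lower per tag in the deeper ones. The smallest pileup that the p cutoff of 0.001 could list at the genome-wide background was 3 tags in ERG shRNA, 5 in ERG shRNA 2 after scaling to the input, and 4 in the control, a scaled pileup of 0.62, 0.35 and 0.43. At the same tag density, allowing for tag number and extension, the 43 GAGE peaks would have had pileups of 11.9 to 39.6 in ERG shRNA 2 against limits of 5 to 11, and of 7.36 to 24.5 in the control against limits of 4 to 9. The 32 USP17L peaks would have had 15.8 to 35.7 in ERG shRNA 2 against limits of 5 to 11, and 9.82 to 22.1 in the control against limits of 4 to 9. Each of these 75 peaks would thus have passed both limits. So would 100% of all ERG shRNA peaks in the control, so this sets the arrays apart from no other peaks there. For ERG shRNA 2, whose scaled limit was the lowest, the share over all ERG shRNA peaks is not given. Nothing about the arrays is therefore read from that limit either.

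The deposited q column holds values although the file headers say that q would not be calculated. By this q of at most 0.05, 34 of 43 GAGE peaks (79.1%, 64.0 to 90.0) and 24 of 32 USP17L peaks (75.0%, 56.6 to 88.5) of ERG shRNA passed, against 72.6% of the whole list. In the control 3 of 4 GAGE peaks and 2 of 5 USP17L peaks did. By this measure the arrays' peaks were close to the list they came from.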

How the data were processed

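Peak lists of 3 ChIP-seq libraries were used, 1 per group. The submitters' processing notes name hg19 and the tools Bowtie2, bedtools, Picard 2.14.0 and MACS2, and the aligner's settings are unknown here. Each list was called by MACS 2.2.7.1 against an input of 14360465 tags at a p cutoff of 0.001, counting 1 tag per position, per the file headers, with the larger of library and input scaled down to the other. The deposited pileup is a coverage signal of extended tags, the deposited fold enrichment a ratio, and 2 deposited columns hold −log10 of p and of q. Those 2 columns lost their names in the sheets, so their order follows the usual MACS output.

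Pileup was divided by the tags after scaling and given per 1000000. Background was recovered as pileup plus 1 over fold, minus 1. Periods of 1 to 20 kb were tried in steps of 5 bp, and of 2 to 8 kb only where a run was taken by itself. Promoters came from RefSeq, and for GAGE1, which has 2 entries, the second was used. Python 3.11.15, numpy 2.4.6, pandas 2.3.3, scipy 1.17.1, matplotlib 3.10.9 and Biopython 1.88 were used, and the spacing and overlap steps were tested on simulated data. The members, lists and measures were chosen with earlier results of these data known. Named peaks are the 5 ERG shRNA peaks of highest fold in each array, ties included, and every control peak; the chain of 7 was chosen after its values were seen. With 1 library per group no p-value is given, and intervals cover counting error only.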

Additional observations from a re-analysis of the deposited data

Results flagged for a closer look

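The 2 ERG hairpins differed from the control with opposite signs in both windows. For GAGE, the count less that of the control was 39 with ERG shRNA and -4 with ERG shRNA 2. For USP17L it was 27 and -5. The negative values say only that ERG shRNA 2 listed 0 peaks there, as it also did in the 2 windows of 1 Mb on either side of each array. Its whole list held 433 peaks, against 17321 for ERG shRNA and 17986 for the control, so no fall in these windows is read from them. Each hairpin had 1 library, and the difference between them was not tested.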

How the results depend on the processing

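Of 58 alternatives, 46 changed a count, level, width or period by at most 1.5 times or kept a share within its interval, and 12 did not. Some of the 46 could not have changed. They include ERG shRNA 2 counts of 0 under stricter limits. They also include scaling by total tags, which is the same scaling for ERG shRNA and the control, both smaller than the input. The 46 are therefore no measure of stability. A fold of at least 5 left 10 GAGE and 8 USP17L peaks of ERG shRNA and 1 USP17L control peak, and q of at most 0.05 left 2 USP17L control peaks. Limited to the densest run, ERG shRNA held 25 GAGE and 17 USP17L peaks and the control 0 and 1. Limited to both runs, added after seeing the data, the control held 0 GAGE peaks, and the overlapped share of ERG shRNA peaks there was 0%. The GAGE period was 3190 bp when only 2 to 8 kb were searched and 9540 bp by pair distances, added after seeing the data; the USP17L period stayed between 4450 and 4775 bp. The change to 3190 bp follows from the range searched. Stricter limits and fewer runs can only lower a count, and with 0 control peaks in the GAGE runs the overlapped share there is 0% as well. Why the pair measure gave another GAGE period was not tested. No paired analysis was possible because there was a single library for every group. At 3 to 10 tags per ERG shRNA peak, single heights are coarse.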
